A study of Homo sapiens with 21 samples.

Results

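The 6 actin genes of the human genome and 4 genes of the smooth muscle contractile apparatus were followed through the differentiation of induced pluripotent stem cells (iPSCs) into cardiomyocytes (CMs). The genes were *ACTC1*, *ACTA1*, *ACTA2*, *ACTG2*, *ACTB* and *ACTG1*, together with *TAGLN*, *CNN1*, *LMOD1* and *MYH11*. They were picked by symbol from 6 deposited tables of transcripts, and all 10 were found. They gave 34 of the 21537 transcripts in those tables (21 of actins and 13 of smooth muscle genes), and 10 of the 11851 genes.

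Poly-A RNA came from PGP1, an established line of human iPSCs. Wild-type cells were sampled as iPSCs, as mesoderm (M), as cardiac mesoderm (CMes), as cardiac progenitors (CP) and as CMs, with 3 libraries at each of 5 stages. CMs of 2 *UBE2B*-/- lines, which lack the E2 ubiquitin-conjugating enzyme of the complex that deposits monoubiquitin on histone H2B (H2Bub1), gave 3 libraries each, for 21 libraries in all. Replicates were plates that began differentiation at different times, each null line was grown from a picked CRISPR-Cas9 colony, the 2 by different transfection methods, and beating CMs were enriched with lactate. The RNA of the null lines came from beating CMs, so wells that did not beat are not represented. In these bulk libraries, fewer cells of a type and less RNA per cell cannot be told apart.

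Actin is the filament on which myosin pulls. *ACTC1* and *ACTA1* encode the cardiac and skeletal forms of the sarcomere's thin filament, *ACTA2* and *ACTG2* the smooth muscle forms, and *ACTB* and *ACTG1* the cytoplasmic forms present in nearly every cell. In smooth muscle, *MYH11* encodes the myosin heavy chain, *CNN1* calponin, *TAGLN* transgelin (SM22) and *LMOD1* leiomodin, which starts actin filaments. Early heart muscle is known to express several smooth muscle genes for a time. Many actin and smooth muscle promoters carry CArG boxes, the binding element of serum response factor (SRF).

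The actins are so alike that some reads must be shared out between them. Over the coding sequences in GENCODE 44 on GRCh38, of 1125 to 1131 bases, identity ran from 82.2% (*ACTA2* and *ACTB*) to 91.3% (*ACTB* and *ACTG1*). The last pair shared 74 words of 31 bases, more than any other pair, whereas *ACTC1* and *ACTA2* were 85.5% identical and shared 10.

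Sharing reached beyond the actins. Of the 31-base words of the *ACTA2* transcript, 66.8% occurred in no other gene and 32.7% lay in the antisense gene *ACTA2-AS1*. The *ACTC1* transcript ENST00000290378 had 74.2% of its words to itself and shared 22.0% with the neighbouring *GJD2-DT*. Words were compared on both strands, and whether reads were counted by strand is not given in the sources used here, so these values carry the uncertainty of an antisense partner. *CNN1* shared none of its words with another gene, and *ACTG2* kept 97.4% to itself. The leading *TAGLN* transcript, ENST00000392951, had only 17.5% of its words to itself, with the largest overlap, 65.7%, in a gene model without a symbol.

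A CArG box (CC, any 6 of A or T, GG) was searched in the 250 bases before the start of the 7 member genes with a RefSeq promoter sequence, and its occurrence is shown because it is a feature the choice of genes did not use. The box reads the same way in form on both strands. Each stretch below has 40 bases with the box in capitals, 5′ to 3′ on the gene's strand, on GRCh38.p14.
ACTC1, chr15:34795634-34795673, minus strand: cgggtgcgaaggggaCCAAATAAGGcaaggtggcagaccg
ACTA1, chr1:229434167-229434206, minus strand: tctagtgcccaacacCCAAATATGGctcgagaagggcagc
ACTG1, chr17:81512869-81512908, minus strand: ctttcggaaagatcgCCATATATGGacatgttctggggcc
ACTG2, chr2:73892883-73892922, plus strand: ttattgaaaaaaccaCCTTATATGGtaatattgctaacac
ACTG2, chr2:73892920-73892959, plus strand: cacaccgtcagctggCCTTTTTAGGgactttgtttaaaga

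Boxes were present in 4 of the 7 genes, with *ACTG2* holding a pair, and in 1.44% of all 27305 genes searched in the same way. By window, 4 of the 10 member windows held one, against 1.16% of all 35116 of the same length. No exact box was found in these windows of *ACTA2*, *CNN1* and *LMOD1*. Boxes that depart from these letters were not searched. The absence therefore says nothing of SRF binding at those genes, within these windows or elsewhere. Each box began between 73 and 110 bases before the start.

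The deposited tables hold no value per library. Each transcript has its mean over the 6 libraries of a stage pair, or over the 9 libraries of wild-type and null CMs, and its variance within groups. Levels are therefore given as the authors' mean estimated count, a geometric mean with a pseudocount of 0.5, and the depth of the libraries is unknown. The spread is the SD within groups on the log2 scale. Each table lists only transcripts that passed the authors' test, so an unlisted transcript has no value here.

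Presence in the tables differed between members. *CNN1* was listed in all 6 tables, and *ACTC1*, *ACTB*, *ACTG1* and *LMOD1* in 5. *ACTA2* was listed in 3, while *ACTA1*, *ACTG2* and *TAGLN* were listed in 2 and *MYH11* in 1. The CP and CM table alone held all 10 genes, with 23 of its 12982 transcripts, whereas the iPSC and M table held 7 of 3315 from 6 genes.

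**Figure D1:**
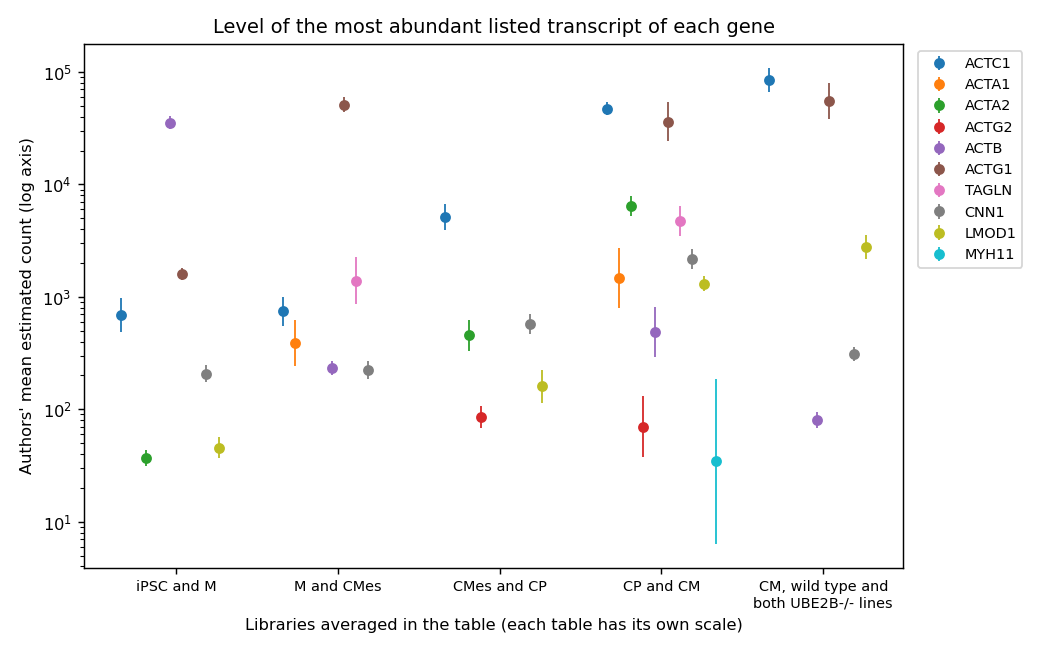
Authors' mean estimated count (log axis) of the most abundant listed transcript of each gene, by the libraries averaged in each table; bars span 1 SD within groups on the log2 scale, and a gene with no point was not listed. Each table has its own scale. The transcript plotted for *ACTB*, *ACTG1* and *CNN1* is not the same in every table, so their points do not trace 1 transcript. The main coding *ACTB* transcript is plotted only for iPSC and M. *ACTC1* stood at 687 in the iPSC and M table and at 47054 in the CP and CM table, while the cytoplasmic actins stood at 35352 (*ACTB*) and 51072 (*ACTG1*) in the first and second tables.

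The cardiac actin had the highest mean estimated count of the listed member transcripts over CP and CM together. Its transcript ENST00000650163 had mean estimated counts of 687 over iPSC and M, 743 over M and CMes, 5126 over CMes and CP, and 47054 over CP and CM. Its SD within groups was 0.50, 0.43, 0.38 and 0.19 in the same order. The coding transcript ENST00000290378 had 257, 268, 1619 and 14124. Both were low in the 2 earlier pairs and high in the last.

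The more abundant of these *ACTC1* transcripts has no defined coding sequence in GENCODE 44. It exceeded the coding one 2.67-fold over iPSC and M, 2.77-fold over M and CMes, 3.17-fold over CMes and CP, and 3.33-fold over CP and CM. These ratios are within a table and so free of its scale, but they have no replicate error here and no test. Neither transcript has a 31-base word found in no other transcript, so some reads had to be assigned by estimate. Words that set these 2 transcripts apart from each other were not counted. The uncertainty from sampling and assigning reads was small over CP and CM. It made 0.25% of the variance within groups for ENST00000650163 and 0.84% for ENST00000290378. *ACTC1* lies at chr15:34790230-34795549 on the minus strand in that annotation.

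To give a direction, the mean of one stage pair was subtracted from that of the next and doubled. The shared middle stage cancels, which leaves the difference between outer stages (CMes against iPSC, CP against M, CM against CMes). Differences were centred on the median transcript and tested with limma. The centring removed log2 shifts of 0.15, 0.38 and -0.44, so all changes are relative to it. A transcript was called at a Benjamini-Hochberg adjusted p of at most 0.05 and a change of at least 1.5-fold. Only transcripts listed in both tables can be tested, which is a selected set, and neighbouring comparisons share libraries.

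**Figure D2:**
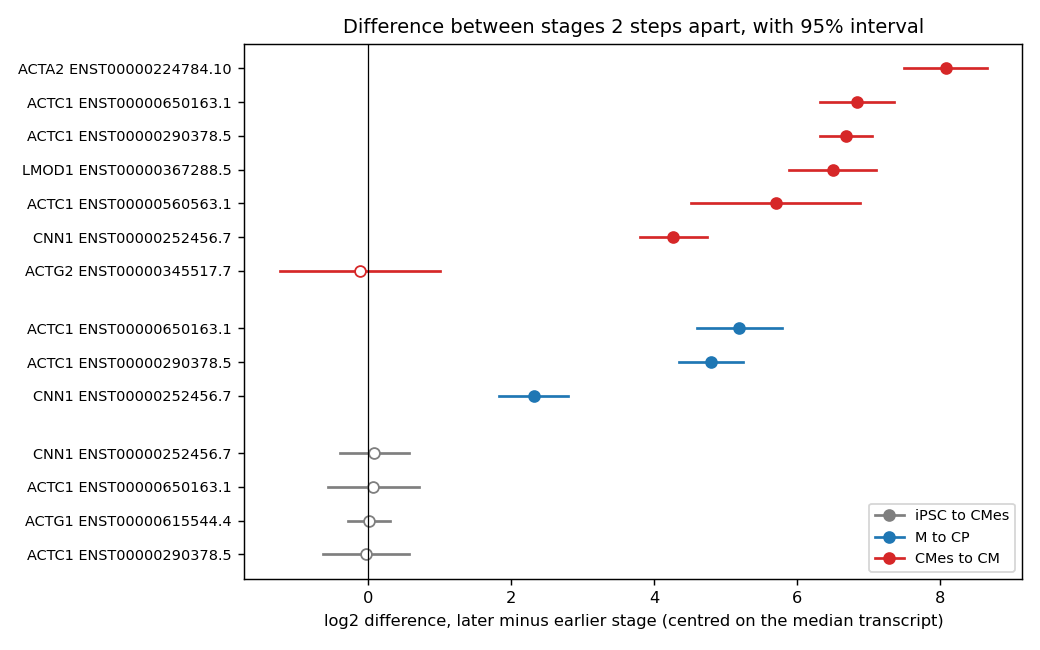
Difference between stages 2 steps apart (log2, later minus earlier, centred on the median transcript) for the 14 testable member changes; lines are 95% intervals, and filled points passed the test. In CMes to CM 6 of 7 points lie above 4, the *ACTG2* interval spans 0, and in iPSC to CMes all 4 intervals span 0.

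From CMes to CM, 6 of 7 member transcripts rose and none fell, beside 30.1% of the 3743 transcripts tested that were called higher and 34.4% called lower. Of those 6, 3 were transcripts of *ACTC1*. The others were the single tested transcripts of *ACTA2*, *LMOD1* and *CNN1*. The seventh, of *ACTG2*, did not pass.

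*ACTA2*, the smooth muscle actin of vessel walls, had the largest change of the members. Its mean estimated count was 36.9 over iPSC and M (SD 0.25), 454 over CMes and CP (SD 0.45) and 6424 over CP and CM (SD 0.29). From CMes to CM it rose by 8.08 on the log2 scale (SE 0.26, adjusted p = 2.1e-08, limma), a 271-fold change with a 95% interval of 7.50 to 8.66 (log2). This was rank 88 from the top among all 3743 transcripts.

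*ACTC1* rose in the same comparison by 6.69 (ENST00000290378, SE 0.16, adjusted p = 6.0e-09) and by 6.84 (ENST00000650163, SE 0.23, adjusted p = 2.9e-08) on the log2 scale. Those are 103-fold and 114-fold changes. The 95% intervals of the 2 transcripts, 6.33 to 7.06 and 6.32 to 7.36, overlapped. Another transcript, ENST00000560563, annotated as a retained intron, rose by 5.71 (SE 0.52, adjusted p = 8.5e-06), from a mean estimated count of 24.6 over CMes and CP to 155 over CP and CM.

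*LMOD1* had mean estimated counts of 45.3 over iPSC and M, 160 over CMes and CP and 1311 over CP and CM. It rose 90.6-fold from CMes to CM (log2 6.50, SE 0.27, adjusted p = 9.5e-08). *CNN1* stood at 207, 225, 573 and 2164 through the 4 stage pairs and rose 19.3-fold (log2 4.27, SE 0.21, adjusted p = 2.1e-07). Its interval, 3.80 to 4.75, lay below those of *ACTA2*, *LMOD1* and the coding *ACTC1* transcript.

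*ACTG2*, the actin of gut smooth muscle, behaved otherwise. Its mean estimated count was 85.4 over CMes and CP (SD 0.32) and 70.1 over CP and CM (SD 0.90). The difference between CMes and CM was -0.12 on the log2 scale (SE 0.49, adjusted p = 0.84), with a 95% interval of -1.24 to 1.00. A change of up to 1.00 in either direction is therefore not shown to be absent. The gene was listed for both steps, CMes to CP and CP to CM, although the outer stages were this close. Of its variation, 95.4% lay between CMes and CP and 68.2% between CP and CM. By the authors' test, its level at CP thus differed from that at both outer stages, in a direction these columns do not give.

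From M to CP, the 3 testable member transcripts all rose, beside 42.1% of 2427 called higher and 33% called lower. When centred on the mean instead of the median, 807 of all transcripts were called higher and 1151 lower, against 1021 and 802. On that centring the member values were 4.60 and 4.21 for *ACTC1* and 1.72 for *CNN1* on the log2 scale, all still called higher. On the median, *ACTC1* rose by 5.19 (ENST00000650163, SE 0.26, adjusted p = 7.5e-08) and 4.80 (ENST00000290378, SE 0.20, adjusted p = 2.1e-08) on the log2 scale. *CNN1* rose 4.98-fold (log2 2.32, SE 0.21, adjusted p = 3.5e-06).

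From iPSC to CMes none of the 4 testable member transcripts was called, beside 17.2% of 1551 called higher and 17.9% called lower, and none had an unadjusted p under 0.05. The largest difference was 0.08 on the log2 scale for *CNN1* (SE 0.22, adjusted p = 0.82, 95% interval -0.40 to 0.57). *ACTC1* had 0.07 (SE 0.29, adjusted p = 0.89) and -0.03 (SE 0.27, adjusted p = 0.97). The cytoplasmic *ACTG1* transcript ENST00000615544 had 0.01 (SE 0.13, adjusted p = 0.99), with the narrowest interval, -0.29 to 0.30. All 4 were listed for both steps, iPSC to M and M to CMes, although the outer stages were this close. From 76.4% to 94.0% of their variation lay between the stages of a step. By the authors' test, the level at M thus differed from that at both outer stages, in a direction these columns do not give. The small outer differences do not mean an unchanged level through M.

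*TAGLN*, *ACTA1*, *ACTB* and *MYH11* had no transcript listed in both tables of any pair, so they have levels but no signed change. *TAGLN*, an actin-bundling protein and an early smooth muscle gene, was listed for M to CMes and for CP to CM. Its transcript ENST00000392951 had a mean estimated count of 1386 over M and CMes (SD 0.69) and 4735 over CP and CM (SD 0.44). ENST00000530649 had 988 and 3111, so the ratio between both transcripts was 1.40 and then 1.52. ENST00000530649 shared 34.3% of its 31-base words with *PCSK7*.

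*ACTA1*, the skeletal muscle actin that the heart also expresses, was listed in the same pair of tables. Its mean estimated count was 388 over M and CMes and 1474 over CP and CM. Its replicates were spread widely, with an SD of 0.69 and 0.88, above the median over all listed transcripts of 0.26 and 0.34. Libraries within a group therefore differed more for this gene than for a typical transcript.

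*MYH11* had the lowest mean level of the members over CP and CM together. It was listed only for CP and CM, with 5 transcript entries. The highest had a mean estimated count of 34.3 (SD 2.43), and the others had 11.1 or less apart from an entry with identical values. As 2 pairs of the 5 held equal values, and one of each pair has an identifier not found in GENCODE 44, they amount to 3 measurements. As a mean over both stages, the smooth muscle myosin was thus at 5.01 estimated counts per kilobase, where *CNN1* had 1443. Of the variation, 81.6% for ENST00000396324 and 99.995% for ENST00000452625 lay between CP and CM. These low means therefore do not describe either stage alone, and the columns used give no direction.

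The cytoplasmic actins were the most abundant members before the CP stage. *ACTB* transcript ENST00000646664 had a mean estimated count of 35352 over iPSC and M (SD 0.18), the highest in that table along with an entry of equal values that carries no gene symbol. *ACTG1* transcript ENST00000573283 had 51072 over M and CMes (SD 0.22) and was second in that table. Over CP and CM the same *ACTG1* transcript had 35991 (SD 0.58). The main coding *ACTB* transcript was not listed there, and the 2 *ACTB* entries that were, at 487 and 4.65, are annotated as targets of nonsense-mediated decay or as a retained intron.

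Levels between genes were compared per kilobase of transcript in the CP and CM table, over transcripts with an unchanged version in GENCODE 44. *ACTC1* was highest with 33706 estimated counts per kilobase, followed by *ACTG1* with 18755, *ACTA2* with 4762 and *TAGLN* with 2535 (ENST00000530649). *CNN1* had 1443, *ACTA1* 989, *LMOD1* 334, *ACTB* 264 and *MYH11* 5.01. The *ACTB* value is that of ENST00000425660, annotated as a target of nonsense-mediated decay. The main coding *ACTB* transcript was not listed, so the place of *ACTB* in this order is not that of the gene. *ACTG2* has another version there and was left out. The values are means over both stages and give no order within CP or within CM.

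Not all neighbours in this order were apart by more than their spread. The log2 gap between *CNN1* and *ACTA1* was 0.55, against a combined SD of 0.93. Between *LMOD1* and *ACTB* ENST00000425660 it was 0.34 against 0.78. The gap between *ACTC1* and *ACTG1*, 0.85, exceeded its combined SD of 0.61. *ACTG1* stood above *ACTA2* by 1.98 against 0.65, and *ACTB* ENST00000425660 above *MYH11* by 5.72 against 2.55. The other gaps were between 1.51 and 1.73 times their combined SD. No test was run on these levels, and the SD within groups leaves out the difference between CP and CM.

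Technical variance was low for the abundant members and varied among the minor ones. The authors' quantification gives it for each transcript as the uncertainty from sampling and assigning reads, and it is set here against the variance within groups. For *ACTC1* ENST00000650163 over CP and CM it made 0.25%, for *ACTG1* ENST00000573283 0.050% and for *ACTA2* 0.44%. Among the less abundant transcripts it was 4.65% for *ACTC1* ENST00000560563, 8.11% for *ACTG2* and 16.7% for *ACTB* ENST00000425660. It was 38.7% for *MYH11* ENST00000396324, 47.6% for *ACTG1* ENST00000572105 and 49.9% for *ACTB* ENST00000645025. *TAGLN* ENST00000525531 had 53.8% and *MYH11* ENST00000573908 had 96.2%. For *CNN1* ENST00000586059 and ENST00000585869 it was 183% and 144%, so technical variance exceeded the spread observed. The same held for *MYH11* ENST00000452625, with 60627% at a mean estimated count of 11.1 and an SD of 0.039. The median over the 23 member transcripts was 15.5%, and that over all listed transcripts 44.4%. In the other stage pairs the member median was also the lower one, though barely so over iPSC and M (36.4% against 37.1%). Over wild-type and null CMs it was the higher one. There it was 55.8% in each table, against 20.6% for line 1 and 20.0% for line 2 over all listed transcripts.

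**Figure D3:**
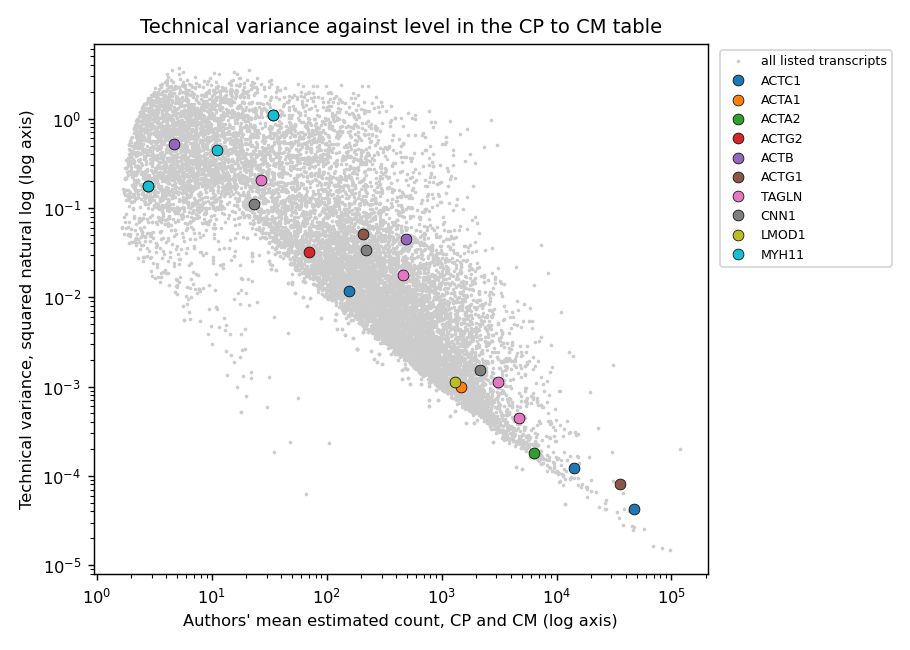
Technical variance (squared natural log, log axis) against the authors' mean estimated count over CP and CM (log axis); grey points are all 12982 listed transcripts and coloured points the 23 member entries. *ACTC1*, *ACTG1* and *ACTA2* lie at the lower right, and the *MYH11* entries at the upper left.

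In the *UBE2B*-/- tables, 7 member transcripts from 4 genes were listed for line 1, of 3088 in all, and 9 from 5 genes for line 2, of 3134. Together these were 10 transcripts from 5 genes. For the 6 listed for both lines, each table held the same mean and variance, as 1 fit over 9 libraries would give. These were *ACTB* ENST00000642480 and ENST00000473257, *ACTG1* ENST00000573283 and ENST00000644774, *CNN1* ENST00000586059 and *LMOD1* ENST00000367288. *ACTG1* ENST00000575842 was listed for line 1 only. *ACTC1* ENST00000650163 and *ACTG1* ENST00000570382 and ENST00000571721 were listed for line 2 only. A transcript listed for 1 line is not shown to differ between the lines. *ACTA1*, *ACTA2*, *ACTG2*, *TAGLN* and *MYH11* were listed for neither.

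The pooled columns give no direction in the null lines, only how much of the variation lay between the 3 groups. The share was highest for *CNN1*, 96.5%, and for *ACTB* ENST00000642480, 94.4%. For the abundant transcripts it was 78.8% for *ACTC1* (mean estimated count 85298, SD 0.35), 76.6% for *ACTG1* ENST00000573283 (55447, SD 0.54) and 71.2% for *LMOD1* (2765, SD 0.35). The median over all listed transcripts was 80.4% for line 1 and 79.8% for line 2. As listing required a difference, these shares had to be high.

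**Figure D4:**
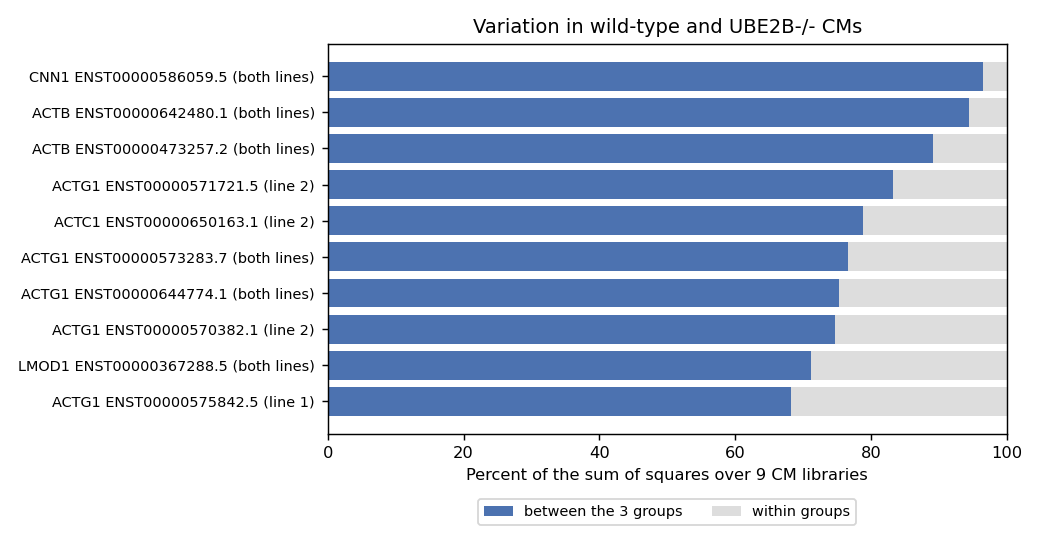
Percent of the sum of squares over 9 CM libraries (3 wild type, 3 of each *UBE2B*-/- line) that lay between the 3 groups (blue) or within groups (grey), for the 10 listed member transcripts. *CNN1* is highest with 96.5% and *ACTG1* ENST00000575842 lowest with 68.3%.

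The *CNN1* entry in those tables was not its main transcript. ENST00000586059 has 565 bases and had a mean estimated count of 308, while the main transcript ENST00000252456 was listed in all 4 stage tables but for neither null line. Likewise, both *ACTB* entries were minor ones. ENST00000642480 had 80.7, with a technical variance at 200% of the variance within groups, and ENST00000473257 had 57.4, with an SD of 2.08. With such technical variance and spread, the values of these 2 entries are uncertain. Words of 31 bases from them occurred in 43 other genes. The same held for the main coding transcript ENST00000646664, whose technical variance over iPSC and M was 0.089% of the variance within groups. The source of the uncertainty was not tested.

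Other genes of actin binding and smooth muscle contraction were also listed. Of 37 such genes, 10 genes with 23 transcripts could be tested from CMes to CM, of which 8 transcripts were higher, 3 lower and 12 not called, with a median log2 difference of 0.23 against 0 over all transcripts. These counts lie beside the 30.1% and 34.4% of all transcripts called higher and lower, so they are no result about the list. *TPM1*, a tropomyosin that lies along the actin filament, had transcripts in both directions, with 13.44 for ENST00000560970 (SE 0.24, adjusted p = 1.2e-09), 5.68 for ENST00000559556 (SE 0.32, adjusted p = 4.3e-07) and -4.84 for ENST00000644204 (SE 1.52, adjusted p = 0.018). *CFL2*, the muscle cofilin, rose by 3.57 (SE 0.14, adjusted p = 6.6e-08). *ACTN4*, a non-muscle alpha-actinin, fell by 1.52 on the log2 scale (SE 0.27, adjusted p = 0.00065) in a pair of entries with equal values.

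From M to CP, 11 transcripts from only 5 of the 37 genes of that list could be tested. Of these 9 were higher and 0 lower, with a median of 2.33, beside 42.1% and 33% over all. The 3 with the largest statistic were transcripts of *TPM1*, at 2.33, 3.03 and 4.67. From iPSC to CMes, 2 of 14 transcripts from 8 genes were higher and 2 lower, with a median of -0.08. These counts lie near the 17.2% and 17.9% over all transcripts and are no result about the list. The called genes are given singly. *MYOCD*, the coactivator of SRF in heart and smooth muscle, rose by 1.83 (SE 0.33, adjusted p = 0.00091) and *FLNA*, an actin crosslinker, by 1.03 (SE 0.18, adjusted p = 0.00083). *SYNPO2*, an actin-bundling protein, fell by 2.14 (SE 0.32, adjusted p = 0.00020), and a *TPM1* transcript, ENST00000610733, fell by 1.62 (SE 0.40, adjusted p = 0.0066), all on the log2 scale.

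Markers of other cell types moved beside the members. Transcripts of 1 gene are not separate markers, so the number of genes is given as well. From CMes to CM all 28 testable transcripts of cardiomyocyte markers, from 7 genes, were higher. Their median log2 difference was 9.45, above that of any member. Over all transcripts 30.1% were called higher and 34.4% lower. Of 9 fibroblast marker transcripts from 6 genes, 4 were higher, 3 were lower and 2 were not called. Those higher included *COL3A1* with 7.20 and *LUM* with 3.94, and those lower *PDGFRA* with -1.48 and *TCF21* with -3.94. The endothelial *VWF* had -7.07, and all 8 testable transcripts of pluripotency markers, from 3 genes, were lower. Of 5 defining smooth muscle genes, only *CNN1* and *LMOD1* could be tested. Both are members, with the values given above, so they add nothing separate. *MYH11*, *SMTN* and *MYOCD* had no value in this comparison. From M to CP, 7 of 7 cardiomyocyte (2 genes), 6 of 6 fibroblast (4 genes) and 1 of 1 endothelial transcripts were higher. All 8 of 8 pluripotency transcripts (3 genes) were lower, beside 42.1% called higher and 33% lower over all transcripts. From iPSC to CMes, 1 of 1 fibroblast transcripts was higher and 1 of 1 pluripotency transcripts lower, beside 17.2% and 17.9% over all. The part of these cell types in the rise of *ACTA2*, *CNN1* and *LMOD1* was not tested.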

How the data were processed

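RNA-seq was deposited as 6 Sleuth tables, 4 of neighbouring stage pairs and 2 of *UBE2B*-/- lines against wild-type CMs. The authors quantified transcripts with Kallisto on hg38 and deposited, for each transcript that passed their test, the mean natural log of normalized estimated counts (pseudocount 0.5) and variance estimates, given as scores in squared natural-log units. The tables also hold the authors' p-values, q-values, effects and standard errors, which were not used. There are 0 columns of values per library, so depth is unknown and replicates could not be compared. Groups came from the sample labels. That each replicate is a separate plate comes from the study's methods.

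Differences between stages 2 steps apart were computed from these means. Their variance was the residual variance averaged over both tables times 2/3, tested two-sided in limma 3.58.1 (R 4.3.3) with moderated statistics and a trend on level. The step assumes that a library's normalization differs between tables only by a constant, which the centring removes. The method was tested on simulated data. All members are named, with the transcript of highest mean speaking for a gene (in the order per kilobase, among those of unchanged version), and of the other genes at most 3 in each direction by absolute statistic, with marker genes named after their values were seen. Members and lists were chosen with earlier results of these data known. Sequences were matched to GENCODE 44 and RefSeq without version, with 32 of 34 transcripts found and 11 of another version. The planned protein identity was replaced by coding identity. A stretch of coding sequence is not reported here.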

Additional observations from a re-analysis of the deposited data

How the results depend on the processing

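Each of 14 member changes was recomputed under 6 alternatives: no centring, centring on the mean, the larger of both residual variances, no trend, at least 10 estimated counts and identical entries counted once. Of 84 values 82 kept their direction and their side of the threshold. Without centring *ACTC1* ENST00000290378 had 0.12 from iPSC to CMes, and with centring on the mean *ACTG1* ENST00000615544 had -0.023, neither called. With the authors' final variance, the median technical share over member transcripts was 21.4% for iPSC and M instead of 36.4%, 30.8% for *UBE2B*-/- line 1 and 24.9% for line 2 instead of 55.8% in each. With 200 bases taken off the length, *ACTC1* ENST00000650163 had 39343 estimated counts per kilobase instead of 33706. No paired analysis was possible because the tables hold only means over libraries. For the same reason no replicate could be left out. A low mean limits *MYH11* and the minor transcripts most.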
